A study of Mus musculus with 9 samples.

Results

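Hoxa11 binding in the mouse limb bud at embryonic stage E11.5 was set against Hoxa13 binding in the limb bud at E12.5. A Hoxa11 site was kept when peaks of replicates 1 and 2 shared at least 1 bp, and the touching peaks were joined into 1 interval. Of 2953 peaks in replicate 1 and 1647 in replicate 2, 1056 and 1064 met the other replicate, which gave 1023 sites. Of these, 662 shared at least 1 bp with 1 of the 44699 Hoxa13 peaks of E12.5, and 361 did not. The 5 deposited peak lists hold 243649 peaks in all, from 9 libraries, 4 of which are input DNA.

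All chromatin came from the limbs of wild-type mouse embryos of the ICR strain, and the antibodies were home-made. Hoxa11 has replicates 1 and 2, both from whole E11.5 limb buds. The chromatin for a precipitation came from the limb buds of a litter, so embryos were pooled. Whether the replicates came from separate litters is not stated in the labels, so differences between them may be technical only. Hoxa13 was precipitated from limb buds at E12.5 in 1 library, by an earlier published procedure, whereas the E11.5 libraries were made with a commercial kit. Factor, stage and protocol therefore change together between the Hoxa11 lists and the Hoxa13 list, and their effects cannot be told apart. Whole limb buds mix proximal and distal cells, so a shared site does not show that both proteins were bound in the same cells, and peak lists hold no expression values by which to check the tissue. Hoxa13 lists of E11.5 limb bud and E11.0 autopod, 1 library each, are used below to say which sites were also listed earlier, to compare distances at E11.5 and E12.5, and to define crowded windows.

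Hox genes encode transcription factors that bind DNA through a homeodomain, and closely related members recognise similar AT-rich sequences. Hoxa11 is known for its role in the zeugopod, the forearm and lower leg. Hoxa13 is known for its role in the autopod, the hand and foot, and in the developing limb the domains of these genes become separate along the proximodistal axis. Both act on regulatory elements that can lie far from the genes they control.

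The sites seen in both Hoxa11 replicates carried Hoxa13 a day later in 64.7% of cases (95% exact Clopper-Pearson interval 61.7 to 67.6, 662 of 1023 sites). All intervals of shares cover counting error over sites, which are not replicates, and no test between conditions is possible with 1 Hoxa13 library. Peaks of the single Hoxa11 lists met Hoxa13 at E12.5 less often: 48.8% in replicate 1 (46.9 to 50.6) and 55.7% in replicate 2 (53.3 to 58.2). The intervals of the replicates did not overlap, but the lists differ in their part of unmatched peaks, 1897 of 2953 and 583 of 1647. The gap between their shares is therefore no measure of replicate spread for other shares. Peaks found in 1 replicate only gave nearly the same share from either library, 40.3% of 1897 in replicate 1 (38.1 to 42.5) and 40.8% of 583 in replicate 2 (36.8 to 44.9). These unmatched peaks were narrower, with median widths of 256 and 247 bp, against 283 bp for all peaks of each replicate. The joined sites, at 438 bp, are wider in part because each unites peaks of both replicates. With every site and peak set to 200 bp around its middle, the share was 57.0% for sites of both replicates, 38.4% for peaks of replicate 1 alone and 37.7% for peaks of replicate 2 alone. The replicated sites thus stayed above both kinds of unmatched peaks at 1 width, while the unmatched peaks of the replicates lay within each other's intervals under either rule. When at least 50% of both intervals had to be shared, 38.9% of the 1023 sites met Hoxa13 (35.9 to 42.0).

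As a share of the other list the overlap was small, which the lengths of the lists fix: 1023 sites can meet only a small part of 44699 peaks. Of the 44699 Hoxa13 peaks at E12.5, 769 met a replicated Hoxa11 site (1.72%, 1.60 to 1.85). Most sites with Hoxa13, 586 of 662, met 1 Hoxa13 peak, while 50 met 2, 17 met 3 and 9 met 4. With the joined list of all peaks of either Hoxa11 replicate the share of Hoxa13 peaks rose to 4.09%.

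The Hoxa13 peaks found at Hoxa11 sites were among the widest of their list. Their median width was 276 bp (quartiles 191 and 436), against 154 bp (125 and 199) for the Hoxa13 peaks that met none. With the Hoxa13 list cut into 10 classes of width of about equal size, 9 of 4916 peaks in the narrowest class met a Hoxa11 site (0.183%, 0.0837 to 0.347). In the widest class, peaks of 271 to 4329 bp, 398 of 4426 did (8.99%, 8.17 to 9.87). That class alone held 398 of the 769 Hoxa13 peaks concerned. A wide peak is met more easily, but with 200 bp around every middle the classes still ran from 0.163% (0.0703 to 0.320) to 6.42% (5.71 to 7.18). The list gives no score, so width was the only measure by which Hoxa13 peaks could be ranked.

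**Figure D1:**
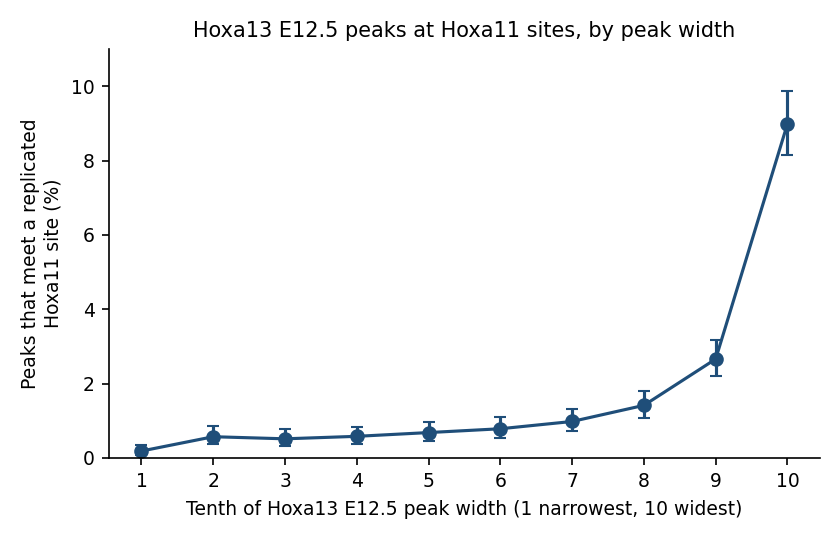
Share of Hoxa13 E12.5 peaks that meet a replicated Hoxa11 site (vertical axis, percent) by class of Hoxa13 peak width (horizontal axis, 10 classes of about equal size). Points are shares of 4046 to 4916 peaks each and bars are 95% exact Clopper-Pearson intervals. The share stays under 1% over the first 7 classes and reaches 8.99% in the widest.

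Where both proteins were listed, their peaks lay nearly centre on centre, though the overlap rule in part fixes this. Only sites that share bases with a Hoxa13 peak enter, so the widths of the intervals limit the distance. The median widths were 475 bp for these sites and 276 bp for the Hoxa13 peaks that met a site. The middle of the Hoxa13 peak lay a median of 55.5 bp from the middle of the Hoxa11 site (quartiles 23.5 and 117 bp). It lay within 50 bp at 311 of the 662 sites and within 100 bp at 462, and 12 sites were over 500 bp away. Neither side was favoured, with the Hoxa13 middle at the lower coordinate in 344 sites, at the higher in 315 and at the same base in 3. The summit that the authors' peak caller placed in Hoxa11 replicate 2 fell inside a Hoxa13 peak at 571 of 662 sites (86.3%, 83.4 to 88.8). The Hoxa11 sites join peaks of both replicates and had the larger median width. Of the 662 sites, 443 held a whole Hoxa13 peak, 31 lay whole within a Hoxa13 peak, and 188 overlapped in part only. The median stretch shared was 270.5 bp, or 60.5% of the width of the Hoxa11 site.

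The distance between the Hoxa11 replicates was set beside these distances. Both kinds were taken at sites chosen for overlap, which limits each of them, so their likeness is in part built in. At 611 sites with Hoxa13 that were built from 1 peak of each replicate, the middles of the Hoxa11 replicates lay a median of 45 bp apart (quartiles 19 and 89.25). At the same sites the middle of Hoxa13 lay 50.5 bp from that of replicate 1 (23 and 106) and 52.5 bp from that of replicate 2 (23 and 103). The Hoxa11 replicates thus lay slightly closer to each other than either did to Hoxa13, by the median and by both quartiles. This difference was not tested. Across 4 classes of Hoxa11 fold enrichment of about equal size, the distance from the middle of the site to that of Hoxa13 had medians of 52.75, 46.75, 53.25 and 55.5 bp from the weakest to the strongest class, with no steady change. From the middle of replicate 2 they were 56, 50.25, 50 and 54 bp. From the replicate 2 summit they fell from the weakest to the strongest class, at 65.25, 50, 49.5 and 43.5 bp, with quartiles that overlapped throughout. The fall was not tested.

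**Figure D2:**
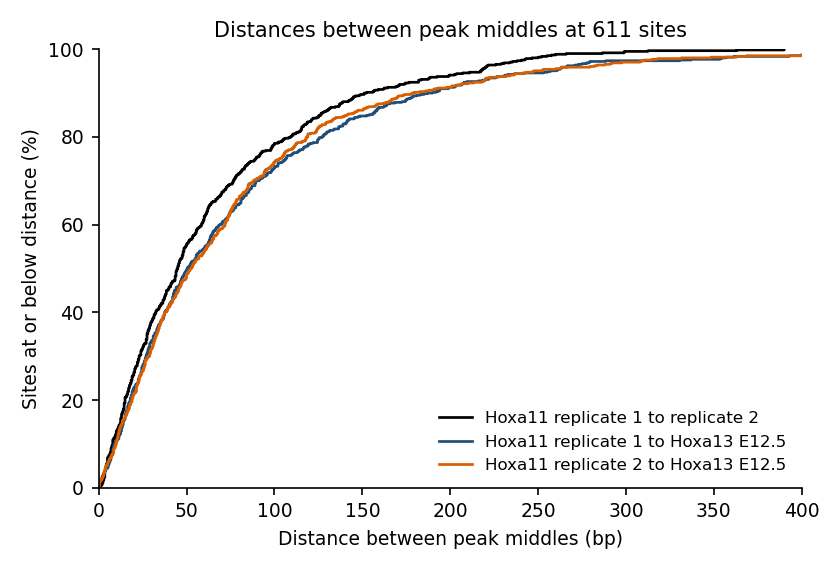
Cumulative share of sites (vertical axis, percent) by distance between peak middles (horizontal axis, bp, shown to 400) at 611 sites with 1 peak of each Hoxa11 replicate. The curve for replicate 1 against replicate 2 runs slightly above those for either replicate against Hoxa13 E12.5, with medians of 45, 50.5 and 52.5 bp.

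Hardly any site lay close to the limit of 1 bp. The smallest overlap was 42 bp, at chromosome 14 from 106658746 to 106659107, and the next was 48 bp, at chromosome 6 from 94021931 to 94022378. Just outside, the nearest Hoxa13 peak lay 57 bp from the site at chromosome 16 from 73096725 to 73097164 and 65 bp from that at chromosome 11 from 85446274 to 85446734. Allowing a gap of 100 bp added 4 sites. Most sites without Hoxa13 were not near misses: the nearest peak was a median of 14.1 kb away (quartiles 4.61 and 41.1 kb), and 43 of the 361 had a peak within 1 kb. Within 10 kb, 153 of 361 had a Hoxa13 peak (42.4%, 37.2 to 47.7), while 353 of the 662 sites with Hoxa13 had a further Hoxa13 peak that close (53.3%, 49.4 to 57.2). Only 40 sites lay over 100 kb from any Hoxa13 peak, the farthest at 550 kb.

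Stronger Hoxa11 sites carried Hoxa13 more often. Fold enrichment over the caller's background, as the authors give it for replicate 2, had a median of 4.46 at sites with Hoxa13 (quartiles 3.67 and 5.68) and 3.85 at sites without (3.25 and 4.60). The ranges overlapped almost fully, from 1.62 to 17.7 and from 2.05 to 15.8. In the 4 classes of fold enrichment the share with Hoxa13 was 51.95% (45.6 to 58.2), 58.7% (52.4 to 64.7), 64.3% (58.0 to 70.2) and 83.98% (78.9 to 88.3), beside 64.7% over all sites. The highest class exceeded the lowest by 32.0 points (95% Newcombe interval 24.2 to 39.3). It was 22.7 points (14.2 to 30.7) at 1 fixed width and 12.1 points (3.67 to 20.3) under 50% reciprocal overlap. The gradient levelled off at the top: outside dense windows, defined below, 7 of the 10 sites of highest fold, 42 of 50 and 83 of 100 carried Hoxa13.

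Wider Hoxa11 sites also carried Hoxa13 more often, but most of that difference was gone at a fixed width. Shares in 4 classes of width were 44.8% (38.7 to 51.1), 63.9% (57.6 to 69.8), 68.4% (62.3 to 74.01) and 82.3% (77.02 to 86.8), a difference of 37.5 points (29.5 to 44.7) between the outer classes. At 200 bp around every middle the shares were 44.8%, 62.7%, 62.5% and 58.3%, so the narrowest class, sites of 207 to 331 bp, stayed apart and the other 3 did not differ beyond their intervals. The outer difference was then 13.4 points (4.81 to 21.8), and 4.15 points (-4.23 to 12.46) under 50% reciprocal overlap. Both rules count against wide sites by construction. The fixed width drops Hoxa13 peaks far from the middle, and a narrow Hoxa13 peak cannot cover 50% of a wide site. The smaller differences are therefore in part built in. Width and fold together gave the extremes under the rule of at least 1 bp. Sites in the lowest class of both carried Hoxa13 in 37 of 92 cases (40.2%, 30.1 to 51.0), and those in the highest class of both in 116 of 124 (93.5%, 87.7 to 97.2). At the fixed width the share of those 124 sites was 64.5%, below the 79.3% of the 58 sites in width class 3 and the highest class of fold. The 37 widest sites of lowest fold then gave 40.5%, beside 40.2% of the 92 in the lowest class of both. No intervals were computed for these shares at the fixed width.

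**Figure D3:**
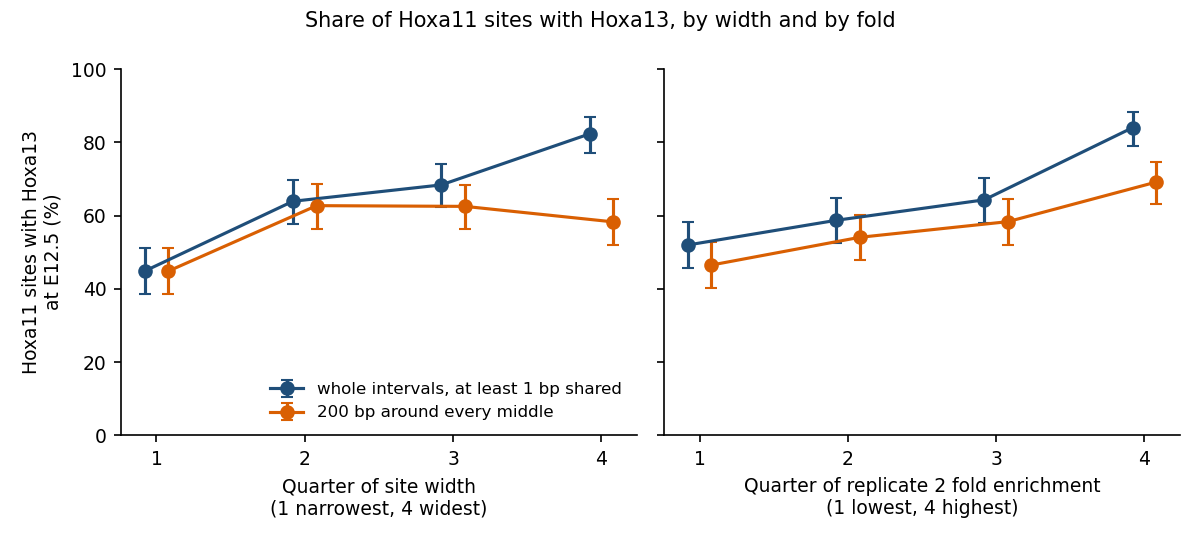
Share of Hoxa11 sites with Hoxa13 at E12.5 (vertical axis, percent) by class of site width (left) and of replicate 2 fold enrichment (right), each cut into 4 classes of about equal size, with 95% exact intervals. Blue points use whole intervals and orange points use 200 bp around every middle. At fixed width the rise with width is gone after the first class, while the rise with fold runs from 46.5% to 69.1%.

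The strongest shared sites varied in how the peaks lay on each other. On assembled chromosomes and outside dense windows, the 10 sites of highest fold with Hoxa13 had fold enrichments of 11.3 to 17.7. Hoxa13 peaks at them were 110 to 629 bp wide, with middles 22.5 to 266.5 bp from those of the sites. All 10 also carried Hoxa13 at E11.5, as did 546 of the 572 sites with Hoxa13 in that part of the genome. The site at chromosome 9 from 29126172 to 29126784 was 584 bp wide in Hoxa11 replicate 1, 536 bp in replicate 2 and 532 bp in Hoxa13, so the lists drew almost the same interval. At chromosome 12 from 9265156 to 9266052 the widths were 897, 766 and 489 bp. At chromosome 3 from 6381507 to 6382977, with the highest fold of all (17.7), Hoxa11 peaks of 1329 and 1002 bp contained Hoxa13 peaks of which the nearest to the middle was only 110 bp wide. The site at chromosome 5 from 147378811 to 147379703 (12.6-fold) held a Hoxa13 peak of 572 bp whole. By contrast, at chromosome 3 from 80850494 to 80851753 (15.3-fold) the Hoxa13 middle was 266.5 bp from the site's middle but 66 bp from the replicate 2 summit. The closest summits in the strongest class of fold lay 1.5 bp from the Hoxa13 middle at chromosome 4 from 116862383 to 116862931 and 3.5 bp at chromosome 9 from 67587933 to 67588501, at chromosome 12 from 35278605 to 35279682 and at chromosome 3 from 99052606 to 99052969.

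Some strong Hoxa11 sites had no Hoxa13 at E12.5. The 10 of highest fold among them ranged from 7.33 to 15.8, with widths of 388 to 1078 bp. Of these, 6 carried Hoxa13 at E11.5. So did 180 of all 338 sites without Hoxa13 at E12.5 on assembled chromosomes outside dense windows. The site at chromosome 10 from 98633049 to 98634126 (15.8-fold) was 1078 bp wide in replicate 1 and 860 bp in replicate 2, yet the nearest Hoxa13 peak of E12.5 was 67.3 kb away. The site at chromosome 7 from 57260837 to 57261266 (13.0-fold) and that at chromosome 16 from 78069634 to 78070172 (12.004-fold) were listed for Hoxa13 at E11.5 and missed an E12.5 peak by 3.88 and 5.50 kb. The site at chromosome 14 from 23834737 to 23835401 (9.71-fold) was likewise listed at E11.5, with its nearest E12.5 peak at 42.3 kb. Of the 10 sites, 5 had an E12.5 peak within 10 kb, beside 153 of all 361 sites without Hoxa13.

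Nearly all sites with Hoxa13 at E12.5 already had it in the limb bud at E11.5, namely 625 of 662 (94.4%, 92.4 to 96.03). Of the 810 sites with Hoxa13 at E11.5, 77.2% (74.1 to 80.01) had it at E12.5, against 37 of the 213 sites without it (17.4%, 12.54 to 23.1). The E11.5 list is much longer, at 143460 peaks, and these shares depend on list length. At the 625 sites with both stages the Hoxa13 middle lay 57 bp from the Hoxa11 middle at E11.5 and 55.5 bp at E12.5 (medians). The E12.5 middle was the nearer in 300 sites and the E11.5 middle in 322. The 185 sites with Hoxa13 at E11.5 and not at E12.5 had a median fold of 4.11 and width of 396 bp, between the 625 sites with both stages (4.52 and 482 bp) and the 176 with neither (3.59 and 334.5 bp).

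The 37 sites with Hoxa13 at E12.5 but not at E11.5 were weaker, with a median fold of 3.83 and a maximum of 7.54. Of them, 10 lay in dense windows, 1 on unplaced sequence and 26 elsewhere, and 7 had been listed in the E11.0 autopod. Dense windows held 85 of all 1023 sites. The strongest was at chromosome 10 from 110348406 to 110348822, where a Hoxa13 peak of 313 bp lay 18 bp from the site's middle. At chromosome 4 from 116862383 to 116862931 (7.13-fold) a Hoxa13 peak of only 122 bp covered the summit. Next, at 6.23-fold, came the site spanning 187027777 to 187028090 on chromosome 1. It was followed by 65820057 to 65820590 on chromosome 2, at 6.08-fold, and by 55811215 to 55811779 on chromosome 12, at 5.62-fold. Their Hoxa13 peaks were 152, 271 and 174 bp wide, with middles 11, 15.5 and 40.5 bp from those of the sites. The chromosome 12 site lies in a run of 9 sites, described below, of which 3 carried Hoxa13 at E12.5 and none at E11.5.

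By chromosome, the share of Hoxa11 sites with Hoxa13 differed little beyond counting error. Among the 20 chromosomes with at least 10 sites, the interval of 18 included the share over all sites. Chromosome 6 was the lowest, with 32 of 67 sites (47.8%, 35.4 to 60.3), and chromosome X the highest, with 68 of 86 (79.1%, 69.0 to 87.1). On chromosome 6, 8 of the sites lay in the 1 Mb window from 114000001 to 115000000, and none of those 8 carried Hoxa13. Among the autosomes the highest was chromosome 8, with 31 of 42 (73.8%, 58.0 to 86.1). No test of the differences was made.

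The value for chromosome X rested on a few crowded windows. Windows of 1 Mb were called dense when their peak count in any Hoxa13 list exceeded the upper quartile by more than 3 interquartile ranges. The rule thus used Hoxa13 counts, those of E12.5 included. A higher share with Hoxa13 inside these windows, and a lower one outside, follows in part from it. Of the 86 sites on chromosome X, 81 lay in 4 such windows, and of the 5 outside them 2 carried Hoxa13 (40%, 5.27 to 85.3). The 3 adjacent windows from 120000001 to 123000000 held 62 sites, of which 59 carried Hoxa13. Median site widths in these windows were 486, 741 and 1456.5 bp, against 438 bp over all sites. The window from 92000001 to 93000000 held 19 sites within 50.8 kb, of which 7 did, and its fold enrichments were low, 2.05 to 3.44. Under 50% reciprocal overlap 28 of the 86 sites on chromosome X met Hoxa13 (32.6%). In all, dense windows held 85 sites, 70 of them with Hoxa13 (82.4%, 72.6 to 89.8), and outside them the share on assembled chromosomes was 62.9% (59.6 to 66.01, 572 of 910). On unplaced sequence, all 11 sites of 4_random, of median width 1009 bp, and 6 of 14 of Un_random carried Hoxa13. The latter split by place, with none of the 7 sites between 2373103 and 2465437 and 6 of the 7 between 3387998 and 3655468.

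Runs of neighbouring Hoxa11 sites differed in whether they carried Hoxa13. These windows were picked for their counts of Hoxa11 sites, and some for their counts with Hoxa13, after the values were seen, so they are described only. On chromosome 14, 8 sites within 132 kb between 52008275 and 52140662 all carried Hoxa13, at fold enrichments of 4.34 to 9.996. Their median width was 1640 bp, against 438 bp over all sites, and a wide site is met more easily. On chromosome 3, 7 of 8 sites between 86186569 and 86565630 did. On chromosome 6, 7 sites within 122 kb between 114454585 and 114576850 had none at E12.5 and none at E11.5, and the nearest E12.5 peak was 93.2 to 215 kb away. All 8 Hoxa11 sites of that 1 Mb window were weak, at 2.43 to 3.44-fold, and their median width was 284 bp. On chromosome 12, 9 sites lay within 57.3 kb between 55782342 and 55839672. Of these, 3 carried Hoxa13 at E12.5 and none did at E11.5. On chromosome 5, none of 4 sites between 13007129 and 13145064 carried Hoxa13 at E12.5 and 2 did at E11.5. Their fold enrichments reached 6.39, and the 1 Mb window held 39 Hoxa13 peaks of E12.5. On chromosome 3, 1 of 7 sites in the window from 96000001 to 97000000 carried it. Outside dense windows, 58 neighbouring pairs of sites lay within 10 kb of each other: in 26 both carried Hoxa13, in 20 one did and in 12 neither.

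Around loci known from limb patterning, Hoxa11 sites carried Hoxa13 at about the rate of all sites. The 1 Mb window of each gene or cluster and the windows on both sides of it were examined for 25 loci. No gene annotation of the build was at hand, so windows were placed in whole Mb and a site is given as in the window of a gene, not as belonging to it. Below, a site said to be at a gene lies in any of these windows, which may be a neighbouring 1. The 1 Mb gene windows of Gli3, Bmp4 and Epha3 held no site. Those of Sall1, Meis1 and Grem1 held 1 each, without Hoxa13. That of Shox2 held 4, of which 3 carried it. The windows held 78 sites, 45 of them with Hoxa13 (57.7%, 46.0 to 68.8), beside 65.3% (62.2 to 68.3) of the 945 sites elsewhere. In the gene windows alone it was 28 of 44 (63.6%, 47.8 to 77.6), and under 50% reciprocal overlap of the 78 sites it was 37.2%, beside 38.9% of all sites under that rule.

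The Hox clusters, whose genes specify position along the limb and body axes, had 29 sites in their windows, 15 with Hoxa13 (51.7%, 32.5 to 70.6). In the HoxD windows on chromosome 2, 6 of 11 sites carried Hoxa13, and in the 1 Mb window of the cluster itself 3 of 4 did. The strongest was that from 74976197 to 74976895, at 11.6-fold, with a Hoxa13 peak of 421 bp whose middle lay 45 bp off. It was followed by that from 74218811 to 74219338, at 9.18-fold, with the summit 4.5 bp from the Hoxa13 middle. Another, from 74535107 to 74535634, was 6.87-fold enriched and held a Hoxa13 peak of 205 bp, while its neighbour from 74536748 to 74537288, at 3.99-fold, missed the nearest E12.5 peak by 1238 bp. Both neighbours were listed for Hoxa13 at E11.5. In the next window, the site from 75332381 to 75332947 (8.23-fold) was among the strongest without Hoxa13, with a peak 2.01 kb away and one listed on it at E11.5.

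In the HoxA windows on chromosome 6, 6 of 12 sites carried Hoxa13, and in the 1 Mb window of the cluster itself 4 of 7 did. The 3 between 52150915 and 52176864 did, at 3.83, 3.50 and 5.80-fold, and all were listed for Hoxa13 at all 3 stages. A neighbour from 52180923 to 52181404, at 2.70-fold, had its nearest Hoxa13 peak 124 bp away. The fourth, from 52551529 to 52552109, met 2 Hoxa13 peaks with the summit at the middle of 1 of them. In the HoxC window on chromosome 15, the site from 102844833 to 102845401 (11.3-fold) had its summit 5.5 bp from the Hoxa13 middle, and its neighbours on both sides, at 4.61 and 3.50-fold, carried none at E12.5 though they did at E11.5. In the HoxB window on chromosome 11, 1 of 2 sites carried Hoxa13.

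The other limb loci had 49 sites, 30 with Hoxa13 (61.2%, 46.2 to 74.8). Among windows of genes for proximal limb identity, those of Meis2, a homeobox gene of the proximal limb, held 6 sites of which 5 carried Hoxa13. The site from 116465387 to 116466073 on chromosome 2 (7.44-fold) had middles 2.5 bp apart. The windows of Meis1, a paralogue of Meis2, had 1 of 3. Those of Shox2, a homeobox gene of the upper limb segment, had 3 of 7. The strongest was at chromosome 3 from 66874127 to 66875569, at 10.6-fold with a Hoxa13 peak of 705 bp. The windows of Irx3 and Irx5, homeobox genes of early limb patterning, had 3 of 4, with middles 4 to 40.5 bp apart.

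Among signalling loci, both sites in the windows of Hand2, a posterior limb regulator upstream of Shh, carried Hoxa13. That at chromosome 8 from 59188065 to 59188886 was 9.67-fold enriched with middles 32 bp apart, and that from 59531196 to 59531982 had middles 401 bp apart. Both sites at Bmp2 and the single site at Bmp4, which encode bone morphogenetic proteins, carried it, as did 3 of 4 at Bmp7. The Bmp7 windows held the site at chromosome 2 from 171458966 to 171459773, at 12.3-fold and with a Hoxa13 peak of 551 bp. The single site in the windows of Shh and its limb enhancer, at chromosome 5 from 29794756 to 29795069 (4.70-fold), had none within 18.6 kb at E12.5 but was listed at E11.5. At Grem1, a BMP antagonist gene, 1 of 3 sites carried Hoxa13. That site, from 114920889 to 114921758, and one of the others also lie in the Meis2 windows. At Gli3, a mediator of Shh signalling, the single site did.

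Among T-box genes, which control limb outgrowth and identity, the window of Tbx3 and Tbx5 held 1 site, at chromosome 5 from 120078542 to 120078942, strong at 8.16-fold but 2.56 kb from the nearest E12.5 peak. At Tbx2 and Tbx4, 1 of 2 carried Hoxa13, and the other missed by 65 bp. Of the Eph receptor genes, which act in cell adhesion and boundary formation, Epha3 had 1 of 2 (12.6-fold, chromosome 16 from 62468496 to 62469145), Epha7 1 of 2 and Epha4 0 of 2. At Sox9, the cartilage regulator, 2 of 3 carried Hoxa13, both with narrow peaks of 118 and 120 bp. At Gdf5, a joint gene, both did, and at Sall1, a distal limb gene, 1 of 2 did. The single site at Aldh1a2, which makes retinoic acid, carried Hoxa13, and the windows of Cyp26b1, which degrades it, held no replicated Hoxa11 site.

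**Figure D4:**
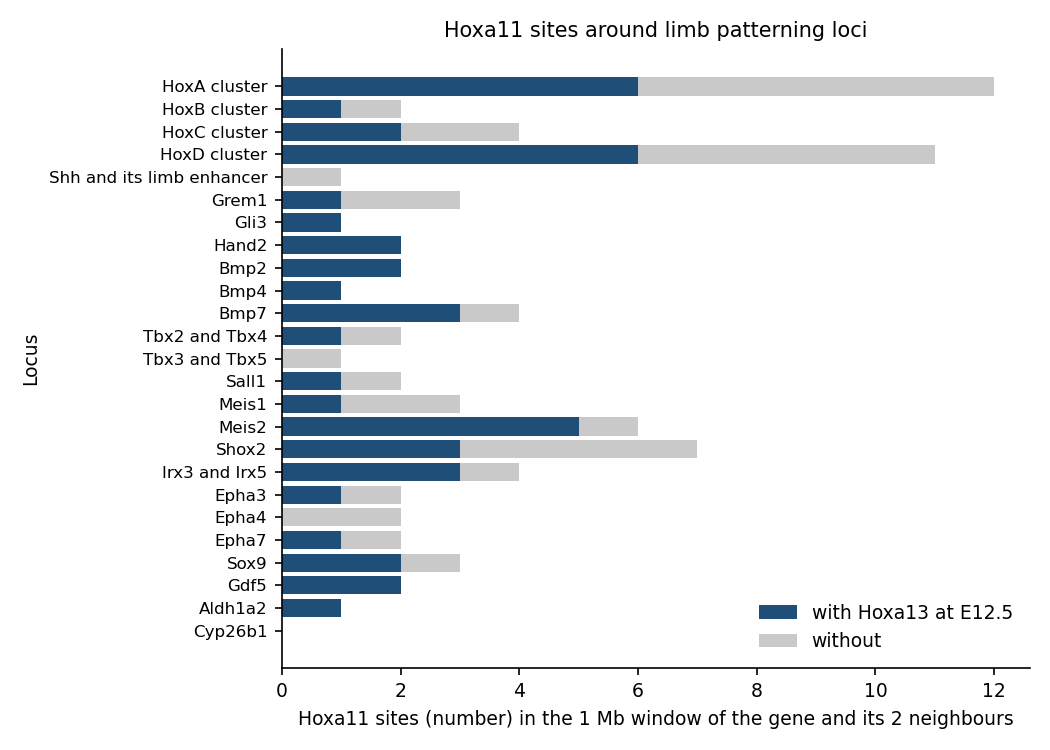
Number of replicated Hoxa11 sites (horizontal axis) in windows around limb patterning loci (vertical axis), split into sites with Hoxa13 at E12.5 (blue) and without (grey). Shh and its enhancer take 4 Mb and every other locus 3 Mb. The HoxA and HoxD windows hold the most sites, 12 and 11, of which 6 each carry Hoxa13.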

How the data were processed

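The submitters' processing notes name the build mm9 and the tools MACS2 2.1.0, Bowtie2 2.2.2 and CASAVA 1.4, without role, order or threshold. Read depth and the use of the inputs are not given there either. The deposited lists of Hoxa13 and of Hoxa11 replicate 1 hold positions only. That of Hoxa11 replicate 2 also holds the authors' fold enrichment (a ratio), −log10 q-value, summit and a score, which equals the whole part of 10 times −log10 q in 100% of peaks. These values were used only within that list. Positions are 1-based.

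Overlaps, joined sites and distances were computed with Python 3.11.15, numpy 2.4.6 and scipy 1.17.1 and checked on simulated intervals. Where a site held several replicate 2 peaks, the one of highest score gave its fold and summit. Among several Hoxa13 peaks, the nearest middle was used. Intervals are exact Clopper-Pearson or, for differences, Newcombe. Named sites are, on assembled chromosomes outside dense windows, the 10 of highest fold with and without Hoxa13, the 5 strongest with Hoxa13 at E12.5 but not E11.5, the 5 closest summits in the highest of 4 classes of fold, all sites in the 1 Mb gene windows of the Hox clusters and the 3 of highest fold, or fewer, per other locus. Sites at the overlap threshold and in crowded windows were named after their values were seen. Members, loci and measures were chosen with earlier results of these data known. Locus windows were placed from general knowledge of mm9. Site sequences were not read and the planned motif count was not run, since no mm9 genome was used here.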

Additional observations from a re-analysis of the deposited data

How the results depend on the processing

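Depth is unknown and each share rests on 1 Hoxa13 library, so the values describe these lists. No paired analysis was possible because only Hoxa11 has replicates. Of 38 alternative values of 8 results, 19 stayed within the 95% interval of the reported value and the other 19 are among the values that follow. The share of sites with Hoxa13 was 38.9% under 50% reciprocal overlap, 57.0% with 200 bp around every middle, 55.9% with the widest 50% of Hoxa13 peaks and 47.5% when all peaks of either replicate were joined. With a single Hoxa11 replicate it was 48.8 to 55.7%. The median distance between middles was 42 bp under 50% reciprocal overlap and 56.25 to 58.75 bp with a single replicate. The difference between outer classes of width was 4.15 points under 50% reciprocal overlap, 13.4 at fixed width and 32.9 to 36.6 with a single replicate. That between outer classes of fold was 12.1 points under 50% reciprocal overlap, 22.7 at fixed width and 29.5 with replicate 2 alone. The chromosome X share was 32.6% under 50% reciprocal overlap, 40% without dense windows and 65.0 to 70.6% with a single replicate. The share at limb loci was 37.2% under 50% reciprocal overlap and 47.4 to 51.9% with a single replicate. The share of Hoxa13 peaks at Hoxa11 sites was 4.09% with the union of replicates and 1.52% without dense windows. The share of sites without Hoxa13 that had a peak nearby was 11.9% within 1 kb and 88.9% within 100 kb. Of 84 named sites, 52 of them with Hoxa13, 21 lost it under 50% reciprocal overlap and 6 at fixed width, and 3 gained it with a gap of 100 bp.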
